A study of Mus musculus with 6 samples.

Results

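The list described here holds 41 genes of Notch signaling and of the Neuralized family, out of 54532 genes in the deposited table. They were chosen by gene name from the pathway, with earlier results of these data known. The list covers the Notch receptors and their ligands, and the Mind bomb and Neuralized proteins, some of which ubiquitinate the ligands. It also covers the enzymes that glycosylate and cleave the receptors, the nuclear complex, the Hes and Hey factors, and the Numb and Deltex proteins. RNA was sequenced from N2a (Neuro2A) cells, a mouse neuroblastoma line that the labels give the strain C57BL/6, in 3 libraries transfected with a control siRNA (si-NC) and 3 transfected with an siRNA against circRtn4 (si-circRtn4), a circular RNA of the Rtn4 gene. The study's methods name C57BL/6 for its mice and give no strain for N2a. N2a is 1 tumor line, so the values describe that line and no normal neuron. The labels name only the growth medium, whereas the study's general methods have N2a cells differentiated with retinoic acid after transfection, so it is not settled which state was sequenced. Neither source says whether the 3 libraries of a group came from separate cultures, and p-values then measure only the spread between these libraries, which may be technical.

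In Notch signaling, a ligand of the Delta or Jagged type on one cell binds a Notch receptor on its neighbor. The ligand must be ubiquitinated, by some members of the Mind bomb or Neuralized family, and pulled into its own cell before the receptor can be cut. Adam proteases and then γ-secretase release the intracellular part of the receptor, which enters the nucleus, joins Rbpj and a Mastermind protein, and switches on Hes and Hey genes. In the developing nervous system these repressors hold back neuronal differentiation.

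Depth was similar in both groups, with 14100818 to 14748929 reads on genes per si-NC library and 13541198 to 15122063 per si-circRtn4 library. All 8 markers of sympathetic neuroblasts, the cell type from which neuroblastoma arises, had a mean of at least 1 FPKM. Their summed level was 1248 to 1325 FPKM with si-NC and 771 to 1053 FPKM with si-circRtn4. As differences in FPKM, means fell most for Chga (254.6 to 85.2 FPKM) and for Tubb3 (538.3 to 433.1 FPKM). Relative to si-NC, Dbh fell furthest, from 5.99 to 0.602 FPKM (10.1% of si-NC). Chga fell to 33.5% and Phox2a to 69.3%, while Tubb3 stayed at 80.4%. Of the 8 markers, 3 (Phox2a, Chga and Dbh) were past the threshold and lower, beside 4.82% of all genes tested. The other 5 did not pass, and the groups overlapped for Hand2, Gata3, Tubb3 and Stmn2, of which Stmn2 had a log2 fold change above 0 (0.12). The 4 fibroblast, 4 endothelial and 3 immune markers each had a mean under 1 FPKM, and of 5 glial markers only Mbp was above it, while Aqp4 was listed at 0 in every library. The glial sum was 4.92 to 5.70 FPKM with si-NC and 3.67 to 5.39 FPKM with si-circRtn4. The lower neuroblast sum moved with the groups, and its part in the results given here was not tested. In bulk RNA, fewer cells of a type and less RNA per cell cannot be told apart.

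The agent that separates the groups and the miRNA that the study links to circRtn4 are shown first, since the sites for their seeds are given beside the results. The study lists 1 strand, and its reverse complement was read as the guide. Capitals mark the seed, bases 2 to 8 from the 5′ end, and in the listed strand the bases it pairs with. The miRNA is from RefSeq.
si-circRtn4, listed strand: cttcagatgagACCCTTTt
si-circRtn4, guide strand: aAAAGGGUcucaucugaag
miR-24-3p: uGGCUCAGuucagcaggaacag

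The values are FPKM, fragments scaled by gene length and by library depth, which corrects for gene length so that levels of different genes can be set side by side. All 41 genes were above 0 in at least 1 library, and 26 had a mean of at least 1 FPKM and were tested. The filter used the mean over all 6 libraries. The ligases and modulators were the abundant members. Dtx3 had the highest mean (57.6 FPKM), followed by Mib2 (29.1 FPKM), Neurl1a (28.4 FPKM), Neurl4 (21.5 FPKM), Adam10 (20.04 FPKM), Hes6 (18.2 FPKM) and Ncstn (17.9 FPKM). Dtx3 stood apart, with 52.1 to 69.6 FPKM over the 6 libraries, while the ranges of Mib2 (20.4 to 37.4 FPKM) and Neurl1a (21.5 to 37.2 FPKM) overlapped with each other and with Neurl4 (20.8 to 22.2 FPKM).

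The 15 genes under the filter included all 4 receptors, 4 of the 5 canonical ligands and 5 of the 7 Hes, Hey and Nrarp genes. Notch1 lay between 0.00975 and 0.0698 FPKM over the 6 libraries, from 2 to 15 reads. Hes1, the best known Notch target in neural cells, lay between 0 and 0.138 FPKM, which is 0 to 4 reads per library. By contrast, every Neuralized, Mind bomb, glycosylation, cleavage, Numb and Deltex gene of the list was above the filter.

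**Figure D1:**
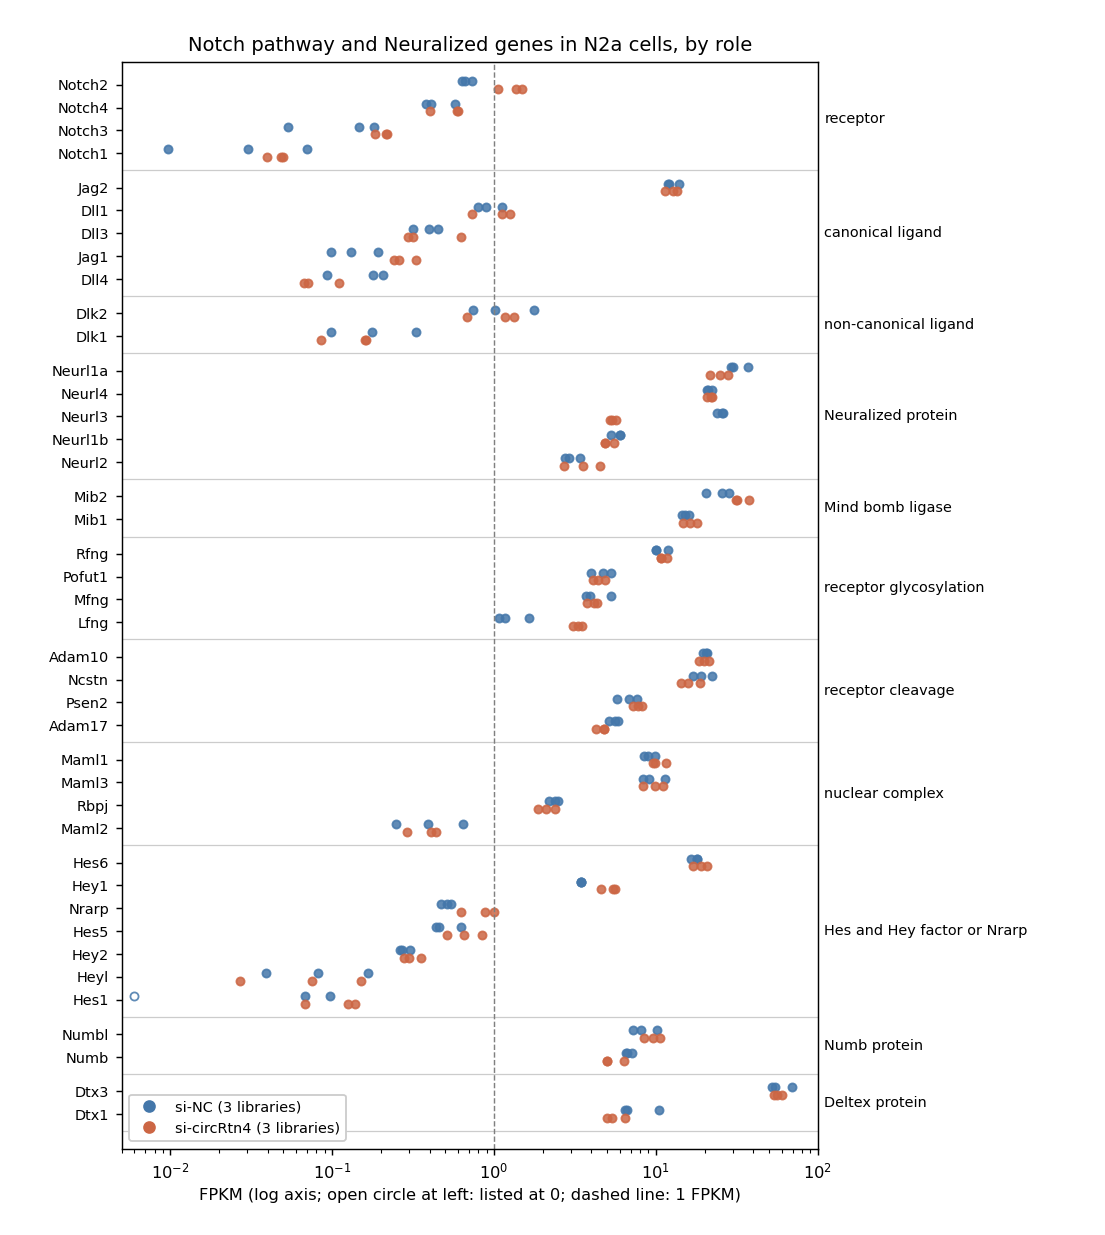
FPKM of the 41 genes in each of the 6 libraries on a log axis, grouped by role and ordered by mean within a role; the dashed line is the filter of 1 FPKM. All 4 receptors have means left of the line, and Neurl3, Lfng and Hey1 are the genes whose si-NC and si-circRtn4 points lie clearly apart to its right.

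The question of the comparison was which genes differ when circRtn4 is targeted. The test was limma on log2(FPKM + 1), with p-values adjusted over all 12749 genes tested by the Benjamini-Hochberg method and a threshold of 0.05. Fold changes are on that scale, which shrinks differences of genes at low FPKM. Of the 26 tested genes of the list, Lfng and Hey1 were higher with si-circRtn4, Neurl3 was lower, and 23 did not pass. This is 11.5% of the members, beside 9.19% of all genes tested. By direction, 7.69% of the members were higher beside 4.36% of all genes, and 3.85% were lower beside 4.82%. The median log2 fold change was -0.016 over the members and 0.00197 over all genes tested. The share of the list that moved was near that of all genes. Since the list was chosen with earlier results of these data known, its share is not independent of them.

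The groups did not overlap for 7 of the 26 genes (26.9%), beside 31.7% of all genes tested. By direction these were 3 higher (11.5%, beside 16.2%) and 4 lower (15.4%, beside 15.5%). Mib2 was the further gene higher in every si-circRtn4 library, and Neurl1a, Numb and Adam17 were the further genes lower in every one. At an unadjusted p under 0.05 limma had the same number of members (26.9%), beside 25.9% of all genes tested. When the replicate number entered the fit as a block, 6 of the 26 (23.1%) passed in limma, beside 19.0% of all genes tested. There were 3 higher and 3 lower, beside 9.29% and 9.75% of all genes, and Mib2, Ncstn and Dtx1 were the added ones.

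**Figure D2:**
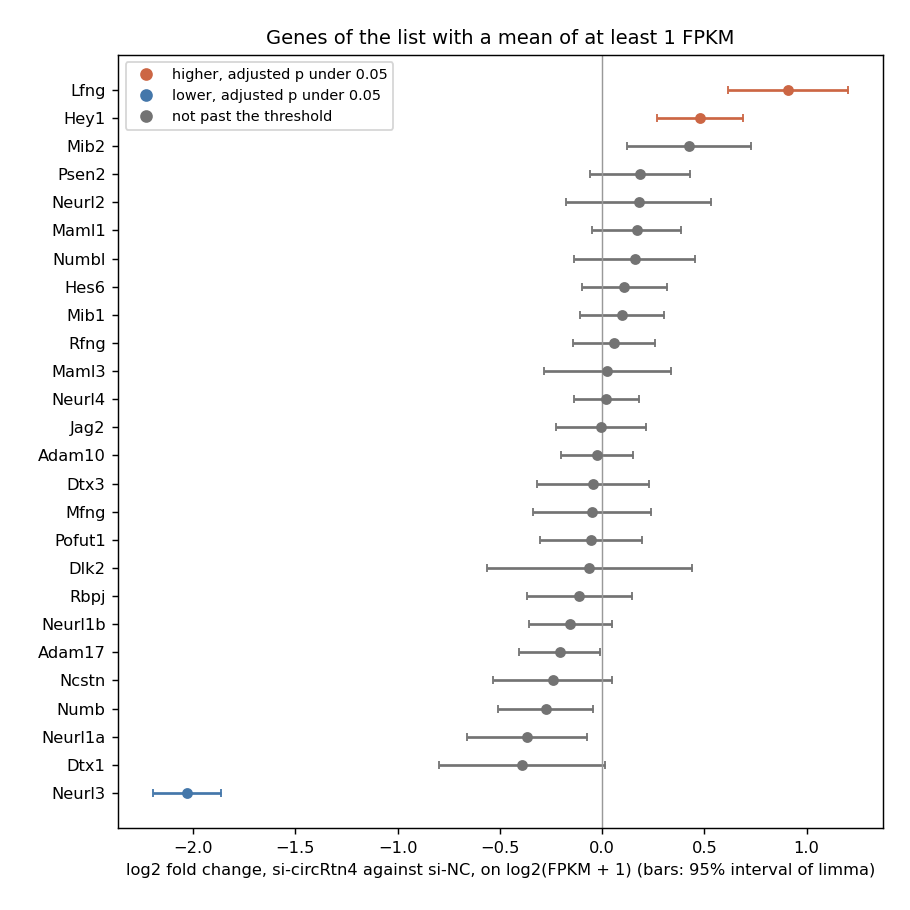
Log2 fold changes of the 26 tested genes (si-circRtn4 against si-NC, log2(FPKM + 1) scale), with 95% intervals from limma; color marks genes at an adjusted p under 0.05. Neurl3 lies alone at -2.03, Lfng and Hey1 lie highest, and the other intervals lie between -0.80 and 0.73.

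Neuralized proteins share the Neuralized homology repeat. Neurl1a and Neurl1b are the ligases closest to the fly protein that ubiquitinates Delta, Neurl2 is a subunit of a ubiquitin ligase known from muscle, Neurl3 is a RING domain ligase first known from lung, and Neurl4 is a centrosomal protein without a RING domain. All 5 had a mean of at least 1 FPKM, and 1 of the 5 passed the test, beside 9.19% of all genes tested. Whether Neurl3 acts on a Notch ligand was not tested.

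Neurl3 (ENSMUSG00000047180, minus strand, chr1:36264597-36274679 in GRCm38) had 24.03, 25.52 and 26.17 FPKM under si-NC. Under si-circRtn4 it had 5.38, 5.21 and 5.69 FPKM. The groups were far apart and each was tight, and the reads behind the values numbered 1167 to 1184 with si-NC and 246 to 266 with si-circRtn4. The means were 25.2 ± 1.09 FPKM (SD, n = 3) and 5.43 ± 0.241 FPKM (SD, n = 3). The second is 21.5% of the first. The log2 fold change was -2.03 (standard error 0.07, 95% interval -2.20 to -1.86), with an adjusted p of 7.23e-05 in limma. By exact permutation of the libraries (two-sided) p was 0.1, the least that groups of 3 can give, here and for each gene whose groups did not overlap. In all 16 alternatives that could be fitted Neurl3 stayed past the threshold, with adjusted p in limma or limma-voom between 5.42e-10 and 0.00178. No other gene overlaps Neurl3 in the annotation.

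Neurl1a, a ligase enriched in brain, was at 37.2, 29.2 and 30.0 FPKM with si-NC and at 24.8, 21.5 and 27.9 FPKM with si-circRtn4. Every si-circRtn4 library was below every si-NC library, but the highest of the former and the lowest of the latter were close. The log2 fold change was -0.37 (standard error 0.13), with an adjusted p of 0.118 in limma, and it did not pass in any alternative (adjusted p 0.0522 to 0.284). Neurl1a overlaps AC132288.2 on its own strand and AC132288.1 and AC132288.3 on the opposite strand, so part of its reads may be of those. The other three Neuralized genes had overlapping groups and did not pass, with log2 fold changes of -0.16 for Neurl1b, 0.18 for Neurl2 and 0.02 for Neurl4. Their intervals were -0.36 to 0.05, -0.18 to 0.53 and -0.14 to 0.18. Neurl2 overlaps Ctsa on the opposite strand, and since strand use in the counting is not given in the sources used here, its reads cannot be told from those of Ctsa.

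**Figure D3:**
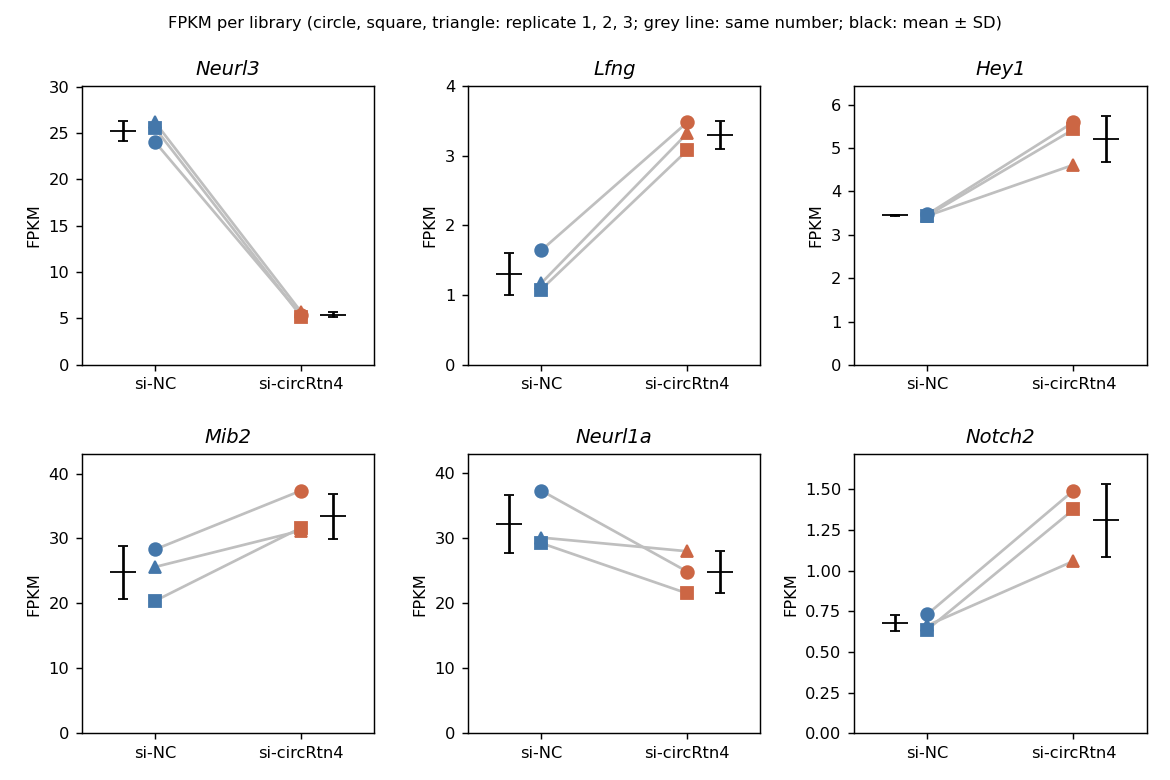
FPKM of 6 genes in each library, with the group mean and SD in black; grey lines join libraries with the same replicate number. Neurl3 falls from 25.2 to 5.43 FPKM on average. Lfng, Hey1, Mib2 and Notch2 are higher, and Neurl1a is lower, in every si-circRtn4 library than in any si-NC library.

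The 3′ UTRs of the family were searched for the 7-base site ACCCTTT, the complement of the guide's seed. It lies in the longest annotated 3′ UTR of Neurl1a, Neurl1b and Neurl3, each time once, and was not among the letters of the 3′ UTRs of Neurl2 and Neurl4. The sites are printed with the bases around them, from GENCODE M21 transcripts in GRCm38 and in the sense of the mRNA, with the site in capitals, so that they can be read against the listed strand above. The unbroken match to that strand is 8 bases in Neurl3, 7 in Neurl1a and 9 in Neurl1b.
Neurl3, chr1:36265343-36265372, minus strand: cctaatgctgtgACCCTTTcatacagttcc
Neurl1a, chr19:47242914-47242943, plus strand: ggtggtccaacaACCCTTTcataggggtca
Neurl1b, chr17:26446103-26446132, plus strand: acctgtgtacagACCCTTTgaaacatgtct

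Of the whole list, 7 of 41 genes (17.1%) hold the guide's site. Dtx3, Heyl, Mib1 and Rbpj are the others, and Rbpj holds 2 sites. Among tested genes with a 3′ UTR, these were 6 of 26 members (23.1%), beside 1336 of all 10688 (12.5%). Those 6 had log2 fold changes of -2.03 (Neurl3), -0.37 (Neurl1a), -0.16 (Neurl1b), -0.11 (Rbpj), -0.04 (Dtx3) and 0.10 (Mib1). Neurl3 was the only one of them past the threshold, beside 9.19% of all genes tested. A site is a description of the sequence, and whether the siRNA acts on any of these mRNAs was not tested. The site for the miR-24-3p seed, CTGAGCC, lies in Dlk2, Maml1, Ncstn, Nrarp, Pofut1 and Rfng, 6 of 41 genes (14.6%). Among tested genes with a 3′ UTR it lies in 5 of 26 members (19.2%), beside 19.6% of all. None of those 5 passed, beside 9.19% of all genes tested.

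The Mind bomb proteins are the main ligases for Notch ligands in mammals, with Mib1 the essential one. Mib1 was at 15.1, 14.5 and 15.9 FPKM with si-NC and at 18.1, 14.8 and 16.3 FPKM with si-circRtn4. The groups overlapped, and the log2 fold change was 0.10 with a 95% interval from -0.11 to 0.30. Mib2 (ENSMUSG00000029060, minus strand, chr4:155654677-155669198) was at 28.3, 20.4 and 25.6 FPKM with si-NC and at 37.4, 31.7 and 31.2 FPKM with si-circRtn4. All 3 si-circRtn4 libraries were above all 3 si-NC libraries. The log2 fold change of 0.43 (standard error 0.13) had an adjusted p of 0.0852 in limma and did not pass. Under the replicate block its adjusted p was 0.0208 in limma, and Mib2 also passed with TPM (0.0448, where 10.8% of all genes passed) and with limma-voom on recovered reads (0.0313, where 12.8% passed). Over all 16 alternatives the adjusted p lay between 0.0154 and 0.212.

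The glycosylation genes act on the extracellular part of the receptor. Pofut1 adds O-fucose, and the Fringe enzymes Lfng, Mfng and Rfng extend it, which changes how a receptor responds to Delta and to Jagged ligands. Of the 4, Lfng was past the threshold and higher, beside 4.36% of all genes tested, and the others did not pass.

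Lfng (ENSMUSG00000029570, plus strand, chr5:140607320-140615545) was at 1.64, 1.08 and 1.17 FPKM with si-NC. With si-circRtn4 it was at 3.48, 3.08 and 3.32 FPKM. The lowest si-circRtn4 library was well above the highest si-NC library, although the level was low in both groups, with 39 to 62 reads and 120 to 124 reads. The means were 1.296 ± 0.301 FPKM (SD, n = 3) and 3.29 ± 0.202 FPKM (SD, n = 3), a ratio of 2.54. The log2 fold change was 0.91 (standard error 0.13, 95% interval 0.62 to 1.202), with an adjusted p of 0.00730 in limma. On recovered reads, where no pseudocount is added to FPKM, limma-voom gave 1.37 with an adjusted p of 0.00184. Lfng passed in all 15 alternatives that could be fitted, with adjusted p in limma or limma-voom between 0.00101 and 0.0412.

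Rfng, the most abundant of these enzymes, was at 11.8, 10.0 and 10.1 FPKM with si-NC and at 10.7, 11.8 and 10.8 FPKM with si-circRtn4. Its groups overlapped, with a log2 fold change of 0.06. Mfng ranged from 3.71 to 5.26 FPKM (-0.05) and Pofut1 from 3.997 to 5.25 FPKM (-0.05), with log2 fold changes in brackets. Lfng had the lowest mean of the Fringe genes in both groups.

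The RefSeq promoters of the list (GRCm38.p6, 300 bases each, most of them before the start) were searched on both strands for GTGGGAA, the core of the sequence bound by Rbpj, which reads TTCCCAC on the other strand. The letters were found in 4 of the 35 members with a promoter in the table (11.4%), Hes5, Hey2, Lfng and Psen2, beside 7.25% of 27025 genes with a promoter. Hes5, Hey2 and Lfng are known as Notch targets in developing tissues. Mib1, Mfng, Hes1, Hey1, Heyl and Dtx3 have no promoter in the table. The Lfng promoter is printed because Lfng is the called gene with a match, in capitals. The match lies 109 bases before the start taken within this promoter, which is not the first base of the Lfng span given above. A match is a description of the letters and not a site.
Lfng, chr5:140607091-140607390, plus strand: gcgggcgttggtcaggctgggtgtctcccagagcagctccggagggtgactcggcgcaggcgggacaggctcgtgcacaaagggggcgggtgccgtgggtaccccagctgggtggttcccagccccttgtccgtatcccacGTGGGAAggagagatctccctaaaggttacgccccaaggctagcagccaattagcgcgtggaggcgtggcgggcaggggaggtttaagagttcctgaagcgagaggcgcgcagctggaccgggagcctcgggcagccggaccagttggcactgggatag

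Of the Hes and Hey factors, transcriptional repressors that the active Notch complex switches on in many tissues, 2 of 7 genes with Nrarp counted among them were tested. Hey1 (ENSMUSG00000040289, minus strand, chr3:8663359-8667256) was at 3.47, 3.44 and 3.44 FPKM with si-NC and at 5.60, 5.43 and 4.61 FPKM with si-circRtn4. All si-circRtn4 libraries were above the si-NC libraries, which lay within a very narrow range. The means were 3.45 ± 0.0183 FPKM (SD, n = 3) and 5.21 ± 0.527 FPKM (SD, n = 3), from 157 to 171 reads and 219 to 276 reads. The log2 fold change was 0.48 (standard error 0.09, 95% interval 0.27 to 0.69), with an adjusted p of 0.0202 in limma.

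The call on Hey1 was less firm than those on Neurl3 and Lfng. It was lost in 5 of 15 alternatives, with an adjusted p in limma of 0.0724 without a filter on low values, where 1.66% of all genes passed. Leaving out replicate 2 or 3 of si-NC gave 0.0738 and 0.0605, and leaving out replicate 1 or 2 of si-circRtn4 gave 0.0691 and 0.0760, all in limma. Its direction did not change in any of the 15, with log2 fold changes of 0.43 to 0.55 when 1 library was left out.

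**Figure D4:**
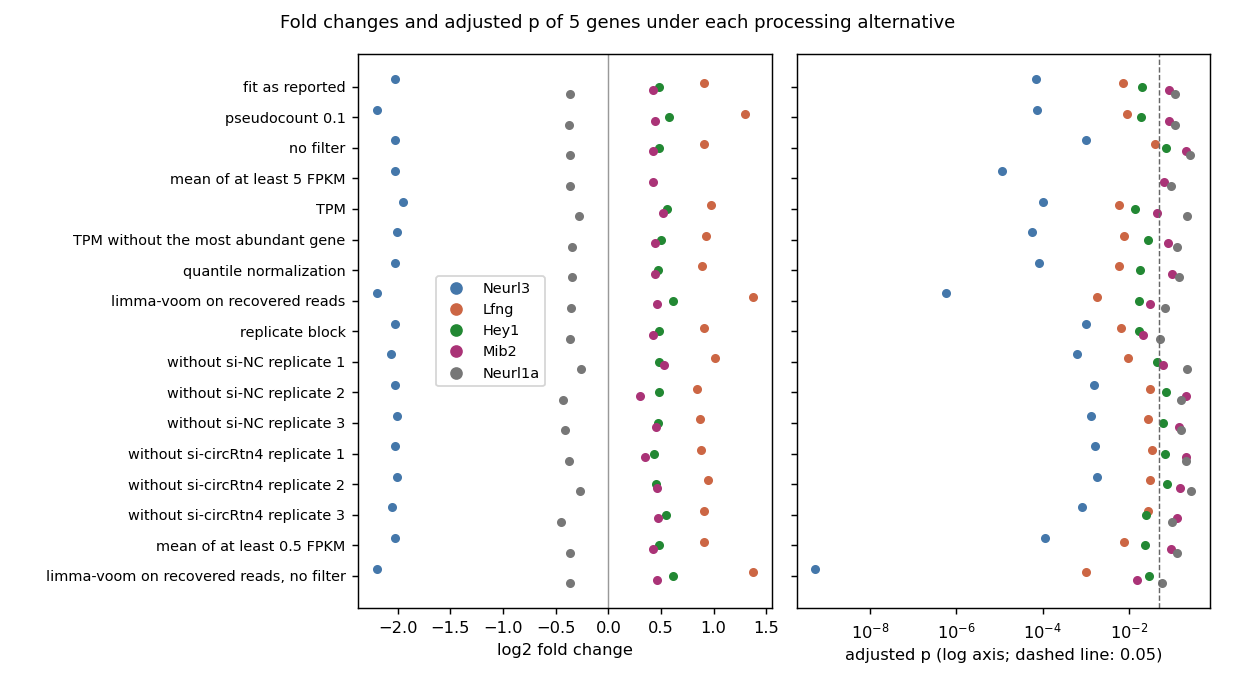
Log2 fold changes (left) and adjusted p (right, log axis) of 5 genes under the reported fit and each alternative, 1 row per setting; the dashed line is 0.05. Neurl3 and Lfng stay left of the line wherever they could be fitted, Hey1 crosses it in 5 settings, Mib2 lies left of it in 4 and Neurl1a in none.

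Hes6, which opposes Hes1 and favors neuronal differentiation, was the most abundant of the group, at 17.96, 16.5 and 17.9 FPKM with si-NC and at 16.99, 19.1 and 20.8 FPKM with si-circRtn4. Its groups overlapped, and the log2 fold change of 0.11 (95% interval -0.10 to 0.32) did not pass. The rest of the group lay under the filter. Nrarp, a feedback inhibitor of the pathway, ranged from 0.470 to 0.539 FPKM with si-NC and from 0.622 to 1.01 FPKM with si-circRtn4. Its groups did not overlap, and without a filter its adjusted p was 0.322 in both limma and limma-voom. Hes5 ranged from 0.437 to 0.848 FPKM, Hey2 from 0.264 to 0.352 FPKM and Heyl from 0.0269 to 0.168 FPKM over all 6 libraries.

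Among the receptors, Notch2 was closest to the filter, with a mean of 0.993 FPKM, and it is singled out here after its values were seen. It was at 0.731, 0.637 and 0.663 FPKM with si-NC and at 1.49, 1.38 and 1.06 FPKM with si-circRtn4. The groups did not overlap, and the reads numbered 99 to 119 with si-NC and 166 to 231 with si-circRtn4. With a filter of 0.5 FPKM in place of 1, which was added after this was seen, the log2 fold change was 0.46 with an adjusted p of 0.0780 in limma, and 7.84% of the genes tested passed. Without a filter the adjusted p was 0.152 in limma. In limma-voom on recovered reads without a filter the change was 0.95 with an adjusted p of 0.00449, where 6.02% of the genes passed, so the call on Notch2 depended on the model. Notch2 overlaps Gm42819 and Gm42820 on its own strand, so part of its reads may be of those. Notch4 ranged from 0.379 to 0.598 FPKM over the 6 libraries. Notch3 ranged from 0.0533 to 0.181 FPKM with si-NC and from 0.184 to 0.218 FPKM with si-circRtn4, so its groups did not overlap but nearly met, and without a filter its adjusted p was 0.469 in limma and 0.334 in limma-voom.

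Of the ligands, Jag2 was the abundant one, at 13.85, 11.85 and 12.1 FPKM with si-NC and at 11.3, 12.8 and 13.5 FPKM with si-circRtn4. Its groups overlapped fully, and the log2 fold change was -0.01 with a 95% interval from -0.22 to 0.21. Dll1 ranged from 0.734 to 1.25 FPKM, Dll3 from 0.296 to 0.627 FPKM and Dll4 from 0.0667 to 0.206 FPKM over the 6 libraries. Jag1 ranged from 0.0981 to 0.193 FPKM with si-NC (8 to 17 reads) and from 0.241 to 0.331 FPKM with si-circRtn4 (20 to 30 reads), so that its groups did not overlap. Without a filter its adjusted p was 0.233 in limma and 0.180 in limma-voom. Dll3 differs from the other Delta proteins in that it acts inside its own cell and does not activate receptors on a neighbor. Of the non-canonical ligands, which resemble Delta but lack the domain that binds the receptor in Delta, Dlk2 was at 1.76, 1.02 and 0.744 FPKM with si-NC and at 1.16, 1.34 and 0.684 FPKM with si-circRtn4. Its log2 fold change of -0.06 did not pass, and its interval was wide (-0.56 to 0.44). Dlk1 lay between 0.0851 and 0.328 FPKM. Dlk2 overlaps Abcc10 on the opposite strand.

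The receptor is cut first by Adam10 or Adam17 and then by γ-secretase, of which Psen2 can be the catalytic subunit and Ncstn binds the substrate. Adam10 was at 20.7, 20.5 and 19.5 FPKM with si-NC and at 21.2, 18.5 and 19.9 FPKM with si-circRtn4, with overlapping groups and a log2 fold change of -0.03. Adam17 was at 5.56, 5.83 and 5.10 FPKM with si-NC and at 4.81, 4.77 and 4.29 FPKM with si-circRtn4. Its groups did not overlap, but the log2 fold change of -0.21 (standard error 0.08) had an adjusted p of 0.173 in limma, and it passed in none of 16 alternatives. Ncstn ranged from 14.3 to 22.2 FPKM and Psen2 from 5.73 to 8.21 FPKM, with log2 fold changes of -0.24 and 0.19 (adjusted p of 0.273 and 0.320 in limma). Ncstn was lower with si-circRtn4 within each of the 3 replicate numbers, by 0.24, 0.25 and 0.23 on the log2 scale, and under the replicate block its adjusted p was 0.0307 in limma. Adam17 overlaps Iah1 and Ncstn overlaps Copa on the opposite strand, so part of their reads may be of those genes. Psen2, Maml1, Maml3, Rbpj, Mib1 and Dtx3 are among the members that also overlap other annotated genes.

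In the nucleus, Rbpj binds DNA and the Mastermind proteins Maml1, Maml2 and Maml3 recruit co-activators. Maml1 had the highest mean over the 6 libraries (9.71 FPKM), nearly level with Maml3 (9.66 FPKM). Maml1 was at 9.83, 8.95 and 8.44 FPKM with si-NC and at 11.5, 9.82 and 9.67 FPKM with si-circRtn4. Its groups overlapped, with a log2 fold change of 0.17 (adjusted p of 0.305 in limma). Maml3 ranged from 8.31 to 11.3 FPKM and Rbpj from 1.86 to 2.47 FPKM, with log2 fold changes of 0.03 and -0.11. Maml2 lay between 0.249 and 0.643 FPKM, under the filter. None of the 3 tested genes of the complex passed, beside 9.19% of all genes tested, and all their intervals included 0.

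Numb and Numbl bind Notch and promote its removal from the membrane. Numb was at 6.55, 7.12 and 6.64 FPKM with si-NC and at 5.02, 6.33 and 4.97 FPKM with si-circRtn4. The groups did not overlap, although the middle si-circRtn4 library was close to the si-NC range, and the log2 fold change of -0.28 (standard error 0.10) had an adjusted p of 0.134 in limma. Numbl was at 10.1, 8.14 and 7.24 FPKM with si-NC and at 10.6, 9.64 and 8.49 FPKM with si-circRtn4, with overlapping groups and a log2 fold change of 0.16. Both have processed pseudogenes within their annotated span, so reads may be shared with those.

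Deltex proteins are ubiquitin ligases that bind Notch or share the Deltex domain. Dtx3, the most abundant gene of the whole list, was at 69.6, 54.3 and 52.1 FPKM with si-NC and at 60.3, 53.4 and 55.7 FPKM with si-circRtn4. The groups overlapped, with a log2 fold change of -0.04 and a 95% interval from -0.32 to 0.23. Dtx1 ranged from 6.41 to 10.4 FPKM with si-NC and from 4.999 to 6.44 FPKM with si-circRtn4, and its log2 fold change of -0.39 had an adjusted p of 0.206 in limma. It was lower within each replicate number, by 0.61, 0.22 and 0.34 on the log2 scale, and passed under the replicate block (adjusted p of 0.0373 in limma).

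The wider pathway was read from further lists. Of 35 other components of Notch signaling, such as γ-secretase subunits, Deltex relatives, co-activators and co-repressors, 30 were tested and 0 passed in limma at an adjusted p under 0.05. All genes tested gave 9.19% called. At an unadjusted p under 0.05, 1 was higher (Fbxw7) and 2 were lower (Dtx4 and Kat2b), beside 25.9% of all genes. With the replicate block the same 3 and Cir1, which was lower, passed, beside 19.0% of all genes, and 0 passed in limma-voom on recovered reads, beside 12.8%. These 4 genes, and those named by such counts in the next lists, are named after their values were seen. Kat2a, a histone acetyltransferase with the highest mean of them (67.3 FPKM, 65.3 to 70.3), had a log2 fold change of 0.06. Of 7 genes of ligand endocytosis, the step that ubiquitination sets off, 6 were tested and 0 passed in limma, while Dnm1 and Epn2 were lower at an unadjusted p under 0.05. Dnm1, a dynamin of neurons, was the only one to pass with the block and in limma-voom (log2 fold change -0.33, adjusted p of 0.0543 in the reported limma fit). The shares of all genes are those given for the previous list. All 6 log2 fold changes were below 0, from -0.33 to -0.06. Their median was -0.15, beside 0.00197 over all genes tested. With TPM the median of all genes was 0.082, so the sign of a small change may depend on the scaling. Cltc, the clathrin heavy chain with the highest mean among the 6 (46.1 FPKM), was at -0.16.

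Of 15 proneural factors and their partners, which Hes proteins repress in neural progenitors, 12 lay under the filter, and Neurog3, Neurod2, Neurod4, Neurod6, Atoh1 and Olig2 were listed at 0 in every library. Of the 3 tested, 0 passed in limma and 0 had an unadjusted p under 0.05, beside 9.19% and 25.9% of all genes. With the block Gfi1 and Myt1 were higher, beside 9.29% of all genes, with log2 fold changes of 0.48 and 0.28, overlapping groups and adjusted p of 0.268 and 0.253 in limma without it. In limma-voom 0 passed. Insm1, a zinc finger factor of neuroendocrine cells and the most abundant of the list at 69.4 to 79.2 FPKM, had a log2 fold change of 0.00 with an adjusted p of 0.982 in limma.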

How the data were processed

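RNA of 6 libraries (3 si-NC, 3 si-circRtn4) was grouped by the sample titles. The authors deposited 1 FPKM value per gene and library. Per the labels, their processing notes name Bowtie 0.12.2 and the builds mm8 and mm9 with no role, whereas 98.1% of the 54532 listed genes have the coordinates of GENCODE M21 (GRCm38). Counting tool, strand setting and annotation are not given in the sources used here. The table holds 6 further columns of values that match no sample, which were not used. FPKM times gene length gave whole reads for 100% of values (within 0.05 of a step), 13541198 to 15122063 per library.

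Members and lists were chosen with earlier results of these data known. The main test was limma 3.58.1 (R 4.3.3; mean-variance trend, two-sided, Benjamini-Hochberg adjustment) on log2(FPKM + 1), fitted to all 12749 genes whose mean reached 1 FPKM. Two-sided exact permutation tests over libraries were added. The fit was also run on simulated counts drawn independently for each library, and no result given here rests on that run. Per-library values are given for members past the threshold or with groups that do not overlap at a mean of at least 1 FPKM, and for the most abundant member of each role; the others, and members under the filter except Notch2, are given by range. Of a further list with no call, the most abundant gene is named. Seed sites were read in each gene's longest 3′ UTR, if it had 20 bases or more. Python 3.11.15 and pandas 2.3.3 were used.

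Replicate numbers are shared between groups. The planned fit with a block treats equal numbers as pairs, although no source says what a number shares. Deviations from group means correlated at 0.331, 0.190 and 0.226 for equal numbers and at most at 0.00913 for unequal ones. Deviations within a group are tied to each other by its mean, so these correlations are not independent and do not settle the pairing. Alternatives were a pseudocount of 0.1, no filter or 5 FPKM, TPM with and without the most abundant gene, quantile normalization, limma-voom on recovered reads, the replicate block and leaving out each library. A filter of 0.5 FPKM and limma-voom without a filter were added after seeing the data.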

Additional observations from a re-analysis of the deposited data

How the results depend on the processing

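The 7 members at a mean of at least 1 FPKM that were called or had groups apart gave 110 values under the alternatives. None changed direction, 101 kept their side of the threshold, 4 passed only under an alternative (Mib2 in each) and 5 lost the call (Hey1 in each). The count of members higher with si-circRtn4 was 2 as reported. It was 1 without a filter, where Hey1 was lost, 0 with a mean of at least 5 FPKM, which removes Lfng and Hey1 from the test, and 4 with limma-voom on recovered reads without a filter, where Mib2 and Notch2 were added. Leaving out 1 library gave 1 to 2 higher, and 1 lower each time. The count lower was 1 as reported and 3 with the replicate block, where Ncstn and Dtx1 were added. The same paired fit gave 3 higher, adding Mib2, and changed no other call of a member. TPM moved the split of all calls from 556 higher and 615 lower (47.5% higher) to 977 higher and 400 lower (71.0% higher), and the median of all genes by 0.08 on the log2 scale. With TPM without the most abundant gene, 52.3% of calls were higher. For the voom and TPM shifts the cause was not tested. Depth limits Hes1 (0 to 4 reads per library) and Notch1 (2 to 15 reads) in particular, where a few reads decide a value.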
